A study of Mus musculus with 19 samples.

Results

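The transcripts of 43 genes of autophagy, the lysosome and ER-phagy were followed in C2C12 cells, a wild-type mouse myoblast line, after thapsigargin, an inhibitor of the SERCA pump that fills the endoplasmic reticulum (ER) with calcium. The genes were taken from a list by symbol, by a rule that sets no threshold on their values, and all 43 were found among the 55401 genes of the count tables. They encode 5 ATG8 proteins, 5 subunits of the ULK kinase complex and 6 of the PI3K complex. Others encode 6 proteins of the ATG9, ATG2 and WIPI machinery, 7 of the ATG8 conjugation system and 5 cargo receptors. The rest encode 3 transcription factors of the TFEB family, 2 lysosomal membrane proteins and 4 ER-phagy receptors. Polyadenylated RNA was sequenced in 19 libraries of 7 groups. The recovery group had 6 h in 100 nM thapsigargin and then 48 h in medium without it (n = 3). The other groups had 2, 6 or 12 h in 100 nM thapsigargin or in its vehicle DMSO (n = 3 each at 2 and 6 h, n = 2 each at 12 h). Whether replicates came from separate cultures is not stated in the labels. The p-values may then reflect no more than the spread between these samples, and that spread may be technical.

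In macroautophagy, the ULK kinase complex starts the formation of a double membrane, the PI3K complex marks it with a lipid, WIPI, ATG9 and ATG2 proteins help it grow, and a conjugation system links ATG8 proteins such as LC3B to its lipids. Cargo receptors tie ubiquitinated proteins or organelles to the ATG8 proteins, and the closed vesicle is degraded in lysosomes. ER-phagy receptors do the same for pieces of the ER. TFEB, TFE3 and MITF are related factors that bind E-boxes in the promoters of lysosomal and autophagy genes. RNA levels of these genes do not measure autophagic flux.

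Each library held between 17305962 and 40964140 reads assigned to genes. Levels are in CPM, the read counts of a gene relative to all gene reads of its library, on library sizes scaled by the trimmed mean of M values (TMM). Tests are edgeR's quasi-likelihood tests in 1 fit of all 19 libraries, with an adjusted p under 0.05 over the 18039 genes tested as the threshold for a call. Log2 differences carry the standard error (SE) of that fit. Of the 43 genes, 42 passed the filter on low counts, and Ccpg1 did not. The stress response marked by Atf4, Cebpg and Ddit3 was present: Atf4 was higher by 2.03 ± 0.23 at 2 h, 1.52 ± 0.23 at 6 h and 1.59 ± 0.28 at 12 h on the log2 scale. Cebpg was higher by 1.80, 2.18 and 1.42 and Ddit3 by 4.35, 4.44 and 4.01 at 2, 6 and 12 h. In DMSO alone, 5 of 6 genes of this response (Atf4, Cebpg, Ddit3, Trib3, Asns and Chac1) were called higher at 6 h than at 2 h. That is 83.3% against 24.6% of all genes called higher, with a median log2 difference of 2.29. The vehicle at 6 h is thus not a baseline shown to be free of this response. The source of that difference was not tested. The 5 myoblast markers summed to 550 to 4998 CPM over all libraries, with 1406 to 2497 CPM in thapsigargin and 2049 to 3550 CPM in DMSO at 6 h, where Myf5 was called higher, Cdh15 and Pax7 lower, and Myod1 and Des were not called. Macrophage markers summed to 2.41 to 11.2 CPM with Adgre1 at 0 counts in every library, and epithelial markers with Epcam at 0 counts summed to 13.3 to 24.3 CPM in thapsigargin at 6 h against 0.685 to 2.61 CPM in DMSO at 6 h. Adipocyte markers summed to 79.4 to 94.4 CPM in thapsigargin against 25.2 to 29.95 CPM in DMSO at 6 h, with Pparg, Lpl and Cd36 called higher. Endothelial markers summed to 2.64 to 4.79 CPM in thapsigargin against 0.514 to 0.610 CPM in DMSO at 6 h, with all 3 that were tested called higher. The part of these marker differences in the results for the 42 genes was not tested. In 2 libraries, recovery replicate 1 and DMSO 2 h replicate 3, mitochondrial transcripts took 14.9% and 15.8% of reads, against 1.41% to 3.07% in the other 17. Counts of called genes are therefore also given without these 2 libraries. In bulk RNA, fewer cells of a type and less RNA per cell cannot be told apart.

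Promoter windows from RefSeq (GRCm38.p6) held 37 of the 43 genes, 48 windows in all. The 250 bases before the transcription start were searched on both strands for CACGTG, the E-box, and for TCACGTG, the longer core that TFEB-family factors bind and that contains it. An E-box was present in 5 of the 48 windows, 1 each of Atg3, Atg5, Atg7, Lamp1 and Retreg1, and in 6.04% of all 32536 distinct windows. The longer core was present in 4 of the 48 windows, 1 each of Atg3, Atg7, Lamp1 and Retreg1, and in 3.16% of all windows. Some genes have more than 1 window. The windows of Atg7 (from chr6:114670846) and Retreg1 (from chr15:25942429) with these motifs lie inside the genes, which begin at 114643097 and 25843180. The windows of Lamp1 and Atg3 are shown for their several copies, and that of Sqstm1 as the most abundant of the 43 transcripts per kb. Capitals mark TCACGTG on either strand. Lamp1 lies at chr8:13158911-13159160 on the plus strand, Atg3 at chr16:45158579-45158828 on the plus strand and Sqstm1 at chr11:50210821-50211070 on the minus strand, each read 5' to 3' along its gene.
Lamp1: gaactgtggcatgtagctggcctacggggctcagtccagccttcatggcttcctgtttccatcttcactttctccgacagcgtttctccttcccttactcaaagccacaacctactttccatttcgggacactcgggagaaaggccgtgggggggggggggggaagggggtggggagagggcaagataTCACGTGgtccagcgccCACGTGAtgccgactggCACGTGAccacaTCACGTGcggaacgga
Atg3: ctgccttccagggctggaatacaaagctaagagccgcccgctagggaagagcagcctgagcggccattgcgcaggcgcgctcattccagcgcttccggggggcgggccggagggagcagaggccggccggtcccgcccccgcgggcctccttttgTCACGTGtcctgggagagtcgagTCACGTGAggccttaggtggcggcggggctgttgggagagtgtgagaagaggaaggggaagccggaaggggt
Sqstm1: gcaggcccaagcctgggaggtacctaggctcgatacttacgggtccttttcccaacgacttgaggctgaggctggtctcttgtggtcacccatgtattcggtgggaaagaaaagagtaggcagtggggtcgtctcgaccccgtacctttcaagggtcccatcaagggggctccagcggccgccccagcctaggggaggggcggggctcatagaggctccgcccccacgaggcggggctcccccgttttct
Lamp1 held 4 E-boxes, which began 61, 45, 28 and 15 bases before the start. Atg3 held 2, which began 94 and 71 bases before it. The Sqstm1 window held neither motif, nor the letters TGATGNAA of the composite C/EBP-ATF core, TGACGTCA of the CREB/ATF site or TGACGTGG. No other motif was searched, and so not the full ER stress element. TGATGNAA was found in 0 of the 48 windows and in 3.4% of all windows. TGACGTCA was found in 2 of the 48 windows, of Mitf and Retreg1, and in 1.56% of all windows. The Mitf window begins at chr6:97991533, inside the gene (97807052 to 98021349). That of Retreg1, from chr15:25843048, is not the window with the E-box. These matches are letters in a window and not measured binding.

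Per kb of exon, Sqstm1 was the most abundant transcript of the 43 by its median over the 19 libraries, at 228 CPM per kb, followed by Lamp1 at 157 and Gabarap at 136 CPM per kb. The ranges of these 3 over the libraries overlapped, with 138 to 774 CPM per kb for Sqstm1, 22.4 to 338 for Lamp1 and 66.3 to 375 for Gabarap. Next came the ER-phagy receptors Rtn3 and Tex264 with medians of 39.8 and 36.4 CPM per kb. Tfeb, Mitf and Wdr45 were the lowest of the tested genes, with medians of 1.89, 1.47 and 0.977 CPM per kb. The length used is the union of all annotated exons, 5669 bases for Tfeb, whose longest transcript has 2342 bases. Ranks and shares per kb, here and below, depend on this choice of length.

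At 6 h in thapsigargin, 10 of the 42 tested genes were called against DMSO at 6 h. Sqstm1, Optn, Atg13, Mitf, Uvrag, Atg10, Tfe3 and Wipi2 rose, and Tfeb and Rtn3 fell. These 10 are 23.8% of the tested members, against 21.8% of all genes called at 6 h, 13.0% higher and 8.8% lower, so the share called is near the background. The median log2 difference of the members was 0.08, against 0.01 over all genes. Of the 42, 17 had groups that did not overlap, against 37.5% of all genes. Without the 2 libraries of high mitochondrial share, neither of which is in this comparison, 19 were called, with 37.0% of all genes. With total-count scaling, Uvrag, Atg10, Tfe3 and Rtn3 were not called.

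At 12 h, Sqstm1, Atg13, Atg14 and Wipi2 rose and Tfeb fell. These 5 of 42 are 11.9%, against 13.1% of all genes called at 12 h, 6.29% higher and 6.77% lower. The members' median log2 difference was 0.31, against 0.01 over all genes, with 33 of 42 above 0. In 35 of the 42 the groups of 2 libraries did not overlap, against 73.1% of all genes. A fit of the 4 libraries at 12 h alone called 31 of the 42 and 62.2% of all genes. Without the 2 libraries of high mitochondrial share, 14 were called, with 25.5% of all genes, and DESeq2 called 10, with 16.9% of all genes. With total-count scaling, Atg14 and Wipi2 were not called.

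At 2 h, edgeR called 0 of the 42, against 4.52% of all genes, 3.01% higher and 1.51% lower. At an unadjusted p under 0.05, 6 were higher and 6 lower. The share of all genes at that threshold was not counted, so these 12 have no background here. DESeq2 called 9 of the 42 and 9.39% of all genes, with Atg12, Atg14, Optn, Sqstm1, Uvrag and Wipi2 higher and Calcoco1, Rtn3 and Ulk1 lower. Without the 2 libraries of high mitochondrial share, edgeR also called 9, and 10.4% of all genes, of which Ambra1, Atg12, Atg14, Mitf, Optn, Uvrag and Wipi2 were higher and Gabarapl2 and Rtn3 lower. The 2 h groups did not overlap in 25 of the 42, against 38.5% of all genes. Of the 42 genes, 4 were called in the same direction at both 6 h and 12 h (Sqstm1, Atg13, Wipi2 and Tfeb), and 31 were called at no time.

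**Figure D1:**
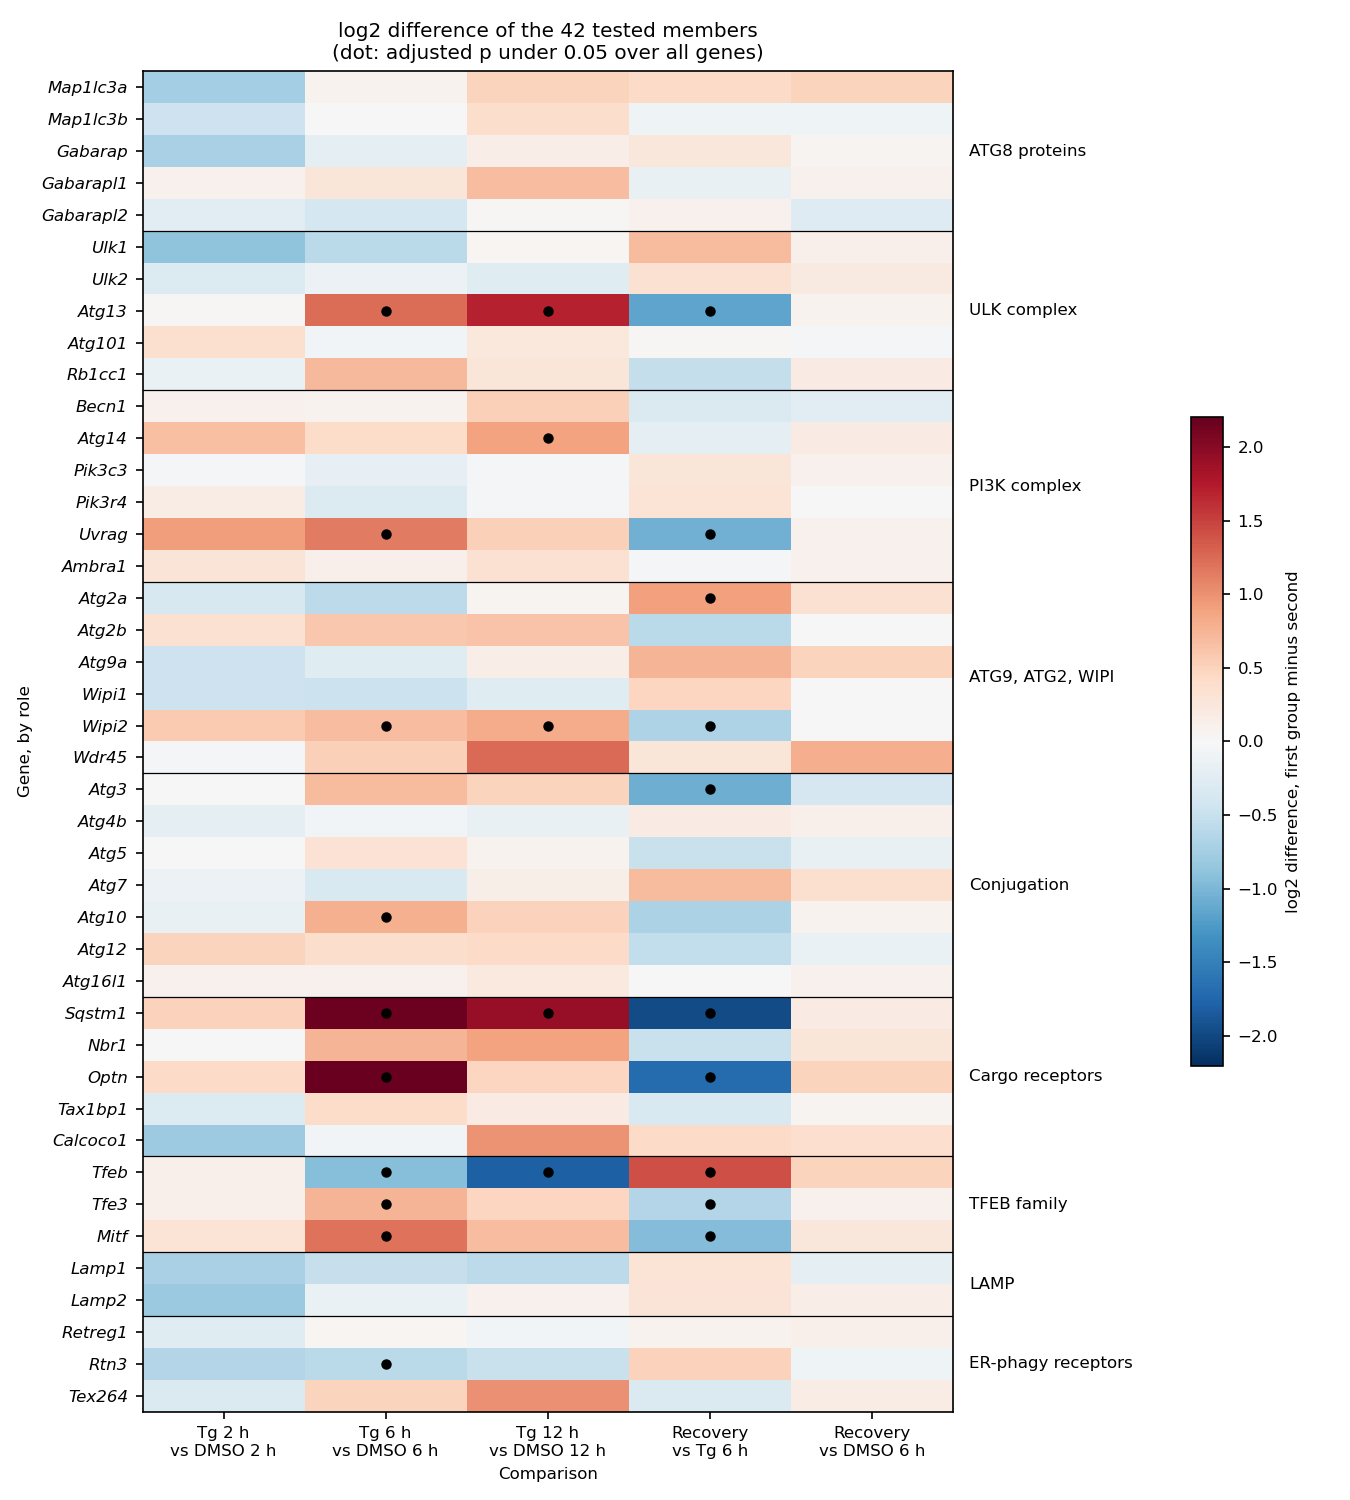
Log2 differences of the 42 tested genes (rows, by role) in 5 comparisons (columns), red where the first group was higher and blue where it was lower, with a dot where the adjusted p was under 0.05. Dots lie in 10 rows at 6 h, in 5 rows at 12 h and in 10 rows for recovery against thapsigargin at 6 h, with none at 2 h or for recovery against DMSO at 6 h.

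Among the cargo receptors, Sqstm1 and Optn rose at 6 h and the other 3 were not called. Sqstm1 (chr11:50199366-50210827, minus strand, GRCm38), which encodes p62, the receptor for ubiquitinated proteins that is itself degraded by autophagy, had 2411, 2544 and 2597 CPM in thapsigargin at 6 h and 605, 597 and 500.0 CPM in DMSO at 6 h. At 12 h it had 2302 and 2521 CPM in thapsigargin and 640.2 and 645 CPM in DMSO. All drug-treated libraries at 6 and 12 h lay far above all vehicle libraries. Sqstm1 was 4.44-fold higher at 6 h (log2 difference 2.15 ± 0.23, adjusted p = 7.68e-06) and 3.75-fold higher at 12 h (1.91 ± 0.28, adjusted p = 0.000226). At 2 h it had 948, 977 and 919.8 CPM in thapsigargin and 764, 767 and 463 CPM in DMSO. These groups did not overlap, but the log2 difference of 0.51 ± 0.22 was not called (adjusted p = 0.241). DMSO 2 h replicate 3, the lowest of them, is 1 of the 2 libraries of high mitochondrial share. Of Sqstm1's exon bases, 17.3% also lie in exons of a gene on the other strand.

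Sqstm1 made up most of the summed level per kb of the 5 cargo receptors, and the share lay higher in the drug groups. It was 91.4% to 94.2% in thapsigargin against 83.1% to 86.2% in DMSO at 6 h, and 89.9% and 90.7% in thapsigargin against 79.3% and 79.6% in DMSO at 12 h. At 2 h the share was 81.7% to 82.4% in thapsigargin against 62.9% to 78.9% in DMSO. Such a share compares genes within a library and so does not depend on the scaling between libraries. It can still vary with the coverage of long transcripts, which differed between libraries, as given at the end. The longest transcript has 2673 bases for Sqstm1, 2614 for Optn and 4789 for Nbr1. The part of this in the share was not tested.

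Optn (chr2:5020642-5064051, minus strand), which encodes optineurin, a receptor for ubiquitinated mitochondria and bacteria, had 78.0, 65.5 and 73.4 CPM in thapsigargin at 6 h against 18.6, 14.9 and 14.3 CPM in DMSO at 6 h. The groups were far apart, and Optn was 4.53-fold higher (log2 difference 2.18 ± 0.18, adjusted p = 4.39e-07). Its libraries at 12 h had 39.1 and 39.7 CPM in thapsigargin and 27.2 and 29.3 CPM in DMSO, and the log2 difference of 0.48 ± 0.21 was not called (adjusted p = 0.159). At 2 h it had 65.9, 64.1 and 66.6 CPM in thapsigargin and 43.8, 43.5 and 59.3 CPM in DMSO, with a log2 difference of 0.42 ± 0.17 that was not called (adjusted p = 0.192). At each of the 3 times all drug libraries lay above all vehicle libraries. Nbr1, a receptor that works beside p62, had log2 differences of 0.75 ± 0.37 at 6 h and 0.89 ± 0.45 at 12 h (adjusted p = 0.172 and 0.243). Calcoco1, a receptor for ER and Golgi membranes, had -0.80 ± 0.28 at 2 h, -0.06 ± 0.28 at 6 h and 0.99 ± 0.35 at 12 h, none of them called. Tax1bp1 had log2 differences of -0.30 to 0.40.

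In the ULK complex, only Atg13 of the 5 subunits was called. Atg13 (chr2:91674618-91710576, minus strand), the adaptor that holds the kinase complex together, had 77.2, 79.7 and 86.2 CPM in thapsigargin at 6 h against 36.8, 33.3 and 33.4 CPM in DMSO at 6 h. At 12 h it had 100.2 and 101 CPM in thapsigargin against 31.6 and 30.6 CPM in DMSO. The drug and vehicle libraries were separate at both times. Its level was 2.35-fold higher at 6 h (log2 difference 1.23 ± 0.14, adjusted p = 1.64e-05) and 3.24-fold higher at 12 h (1.70 ± 0.18, adjusted p = 8.7e-06). At 2 h its 38.99, 36.8 and 41.01 CPM in thapsigargin overlapped the 41.01, 37.3 and 36.8 CPM in DMSO, with a log2 difference of 0.02 ± 0.14. The kinase Ulk1 had log2 differences of -0.88 ± 0.29 at 2 h, -0.59 ± 0.29 at 6 h and 0.04 ± 0.35 at 12 h, with adjusted p = 0.103, 0.168 and 0.978. Ulk2, Atg101 and Rb1cc1, which encodes the scaffold FIP200, had log2 differences of -0.29 to 0.71 over the 3 times.

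**Figure D2:**
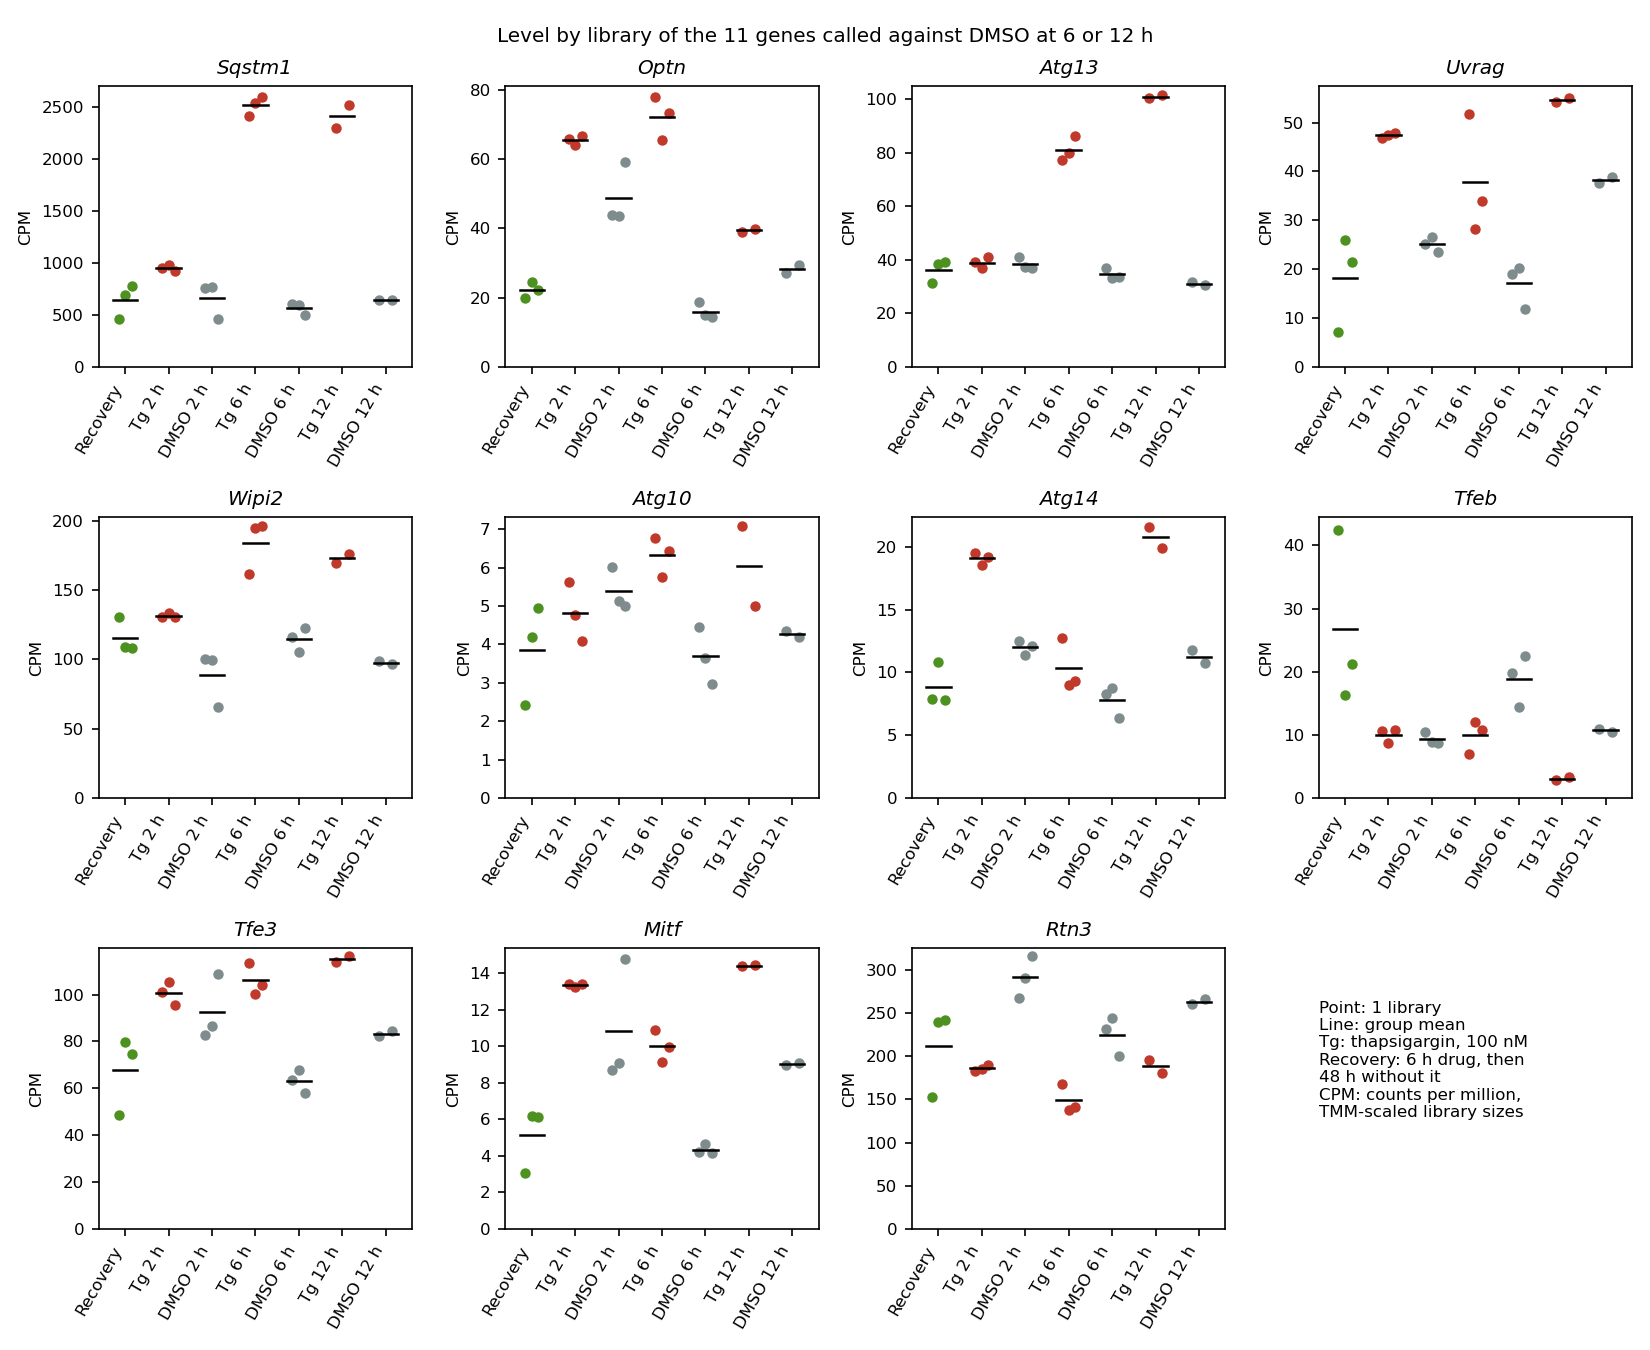
CPM by library of the 11 genes called against DMSO at 6 or 12 h, with 1 point per library and a line at the group mean (recovery in green, thapsigargin, Tg, in red, DMSO in grey). Sqstm1 lies at 2302 to 2597 CPM in the 5 drug libraries of 6 and 12 h, and in recovery at 465 to 776 CPM.

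Of the 6 genes of the PI3K complex, Uvrag rose at 6 h and Atg14 at 12 h. Uvrag, a subunit that acts in the maturation of autophagosomes and endosomes, had 51.7, 28.2 and 33.9 CPM in thapsigargin at 6 h and 18.98, 20.3 and 11.9 CPM in DMSO at 6 h. The groups did not overlap, and the log2 difference was 1.15 ± 0.35 (adjusted p = 0.0256). Without thapsigargin 6 h replicate 1, the highest library, it was 0.86 with adjusted p = 0.119, and the call was also lost without DMSO 6 h replicate 1 (adjusted p = 0.0563) and without DMSO 6 h replicate 3 (adjusted p = 0.103). Long transcripts were better covered in that thapsigargin library than in the other 2 of its group, as described below for all libraries. At 2 h Uvrag had 46.9, 47.5 and 47.9 CPM in thapsigargin and 25.1, 26.7 and 23.4 CPM in DMSO, which did not overlap but were not called (0.92 ± 0.35, adjusted p = 0.164). Its libraries at 12 h had 54.2 and 55.1 CPM in thapsigargin and 37.6 and 38.8 CPM in DMSO (0.52 ± 0.42, adjusted p = 0.547).

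Atg14, the subunit that directs the PI3K complex to autophagosome formation, had 21.6 and 19.9 CPM in thapsigargin at 12 h and 11.8 and 10.7 CPM in DMSO at 12 h. The log2 difference was 0.88 ± 0.24 (adjusted p = 0.0203), and leaving out any 1 of these 4 libraries raised the adjusted p to 0.0881 to 0.192. Drug libraries were also above all vehicle libraries at 2 h, with 19.5, 18.6 and 19.2 CPM in thapsigargin against 12.5, 11.4 and 12.1 CPM in DMSO (0.67 ± 0.19, adjusted p = 0.0617), and at 6 h, with 12.7, 8.99 and 9.29 CPM against 8.24, 8.75 and 6.36 CPM (0.41 ± 0.19, adjusted p = 0.157). The lipid kinase subunit Pik3c3 (VPS34), its partner Pik3r4, Becn1 (Beclin 1) and Ambra1 were not called at any time, with log2 differences of -0.31 to 0.53. Exons of Becn1 share 43.9% of their bases with genes on the other strand, and the counts are not stated to use strand.

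Wipi2, which binds the lipid made by the PI3K complex and recruits the conjugation machinery, was the only called gene of the 6 in the ATG9, ATG2 and WIPI group. It had 161.5, 194.9 and 196 CPM in thapsigargin at 6 h and 116, 105 and 123 CPM in DMSO at 6 h. At 12 h it had 169 and 176 CPM in thapsigargin and 98.6 and 96.5 CPM in DMSO. Groups were separate at both times. The log2 differences were 0.68 ± 0.18 at 6 h (adjusted p = 0.00977) and 0.82 ± 0.22 at 12 h (adjusted p = 0.0168). The call at 6 h was lost without DMSO 6 h replicate 2 (adjusted p = 0.0569), and that at 12 h without any 1 of its 4 libraries (adjusted p = 0.0843 to 0.14). At 2 h its 131, 134 and 130.3 CPM in thapsigargin lay above the 100.2, 99.7 and 65.3 CPM in DMSO (0.57 ± 0.18, adjusted p = 0.0781). Its relative Wipi1 had log2 differences of -0.46, -0.47 and -0.26 at 2, 6 and 12 h, none called, and Wdr45, another WIPI protein, had -0.03, 0.53 and 1.25, none called. The lipid transfer genes Atg2a and Atg2b and the scramblase gene Atg9a ranged from -0.57 to 0.63.

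Atg10, the E2-like enzyme that joins ATG12 to ATG5, was the only called gene of the 7 in the conjugation system. It had 6.78, 5.76 and 6.43 CPM in thapsigargin at 6 h and 4.45, 3.64 and 2.96 CPM in DMSO at 6 h, with no overlap. The log2 difference of 0.78 ± 0.26 (adjusted p = 0.0413) was not called in 5 of the 6 fits without 1 library (adjusted p up to 0.144), all but that without DMSO 6 h replicate 1. At 2 h the libraries had 5.63, 4.76 and 4.09 CPM in thapsigargin and 6.02, 5.14 and 5.00 CPM in DMSO, which overlapped. At 12 h they had 7.09 and 4.99 CPM in thapsigargin and 4.34 and 4.20 CPM in DMSO (0.50 ± 0.32, adjusted p = 0.391). Atg3, the E2-like enzyme that attaches ATG8 proteins to lipid, had 77.3, 80.7 and 83.4 CPM in thapsigargin at 6 h, above the 52.0, 50.7 and 45.8 CPM in DMSO at 6 h, but was not called (0.70 ± 0.27, adjusted p = 0.0759). The other 5, Atg4b, Atg5, Atg7, Atg12 and Atg16l1, had log2 differences of -0.33 to 0.49.

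In the fit of all 19 libraries, edgeR called no ATG8 gene at 2, 6 or 12 h. At an unadjusted p under 0.05, where the share of all genes was not counted, 2 of the 5 were lower at 2 h, Map1lc3b and Gabarap. DESeq2 called 0 of the 5 at 2 h, 0 at 6 h and 1 at 12 h, Gabarapl1, with 9.39%, 26.4% and 16.9% of all genes. A fit of each time alone called Gabarap, Map1lc3a and Map1lc3b lower at 2 h, and these 3 and Gabarapl1 higher at 12 h. These fits called 16.2% of all genes at 2 h and 62.2% at 12 h. Without the 2 libraries of high mitochondrial share, edgeR called 1 of the 5 lower at 2 h, 1 lower at 6 h and 1 higher at 12 h. That fit called 10.4%, 37.0% and 25.5% of all genes at these times. With length and GC offsets, 2 were called lower at 2 h and 1 higher at 12 h, with 8.18% and 17.5% of all genes. Map1lc3b, the gene of LC3B, had 76.3, 77.6 and 80.99 CPM in thapsigargin at 2 h against 118, 108 and 94.9 CPM in DMSO at 2 h, below all vehicle libraries (-0.45 ± 0.21, adjusted p = 0.289). At 6 h its 128, 188 and 168 CPM in thapsigargin overlapped the 149, 133 and 205 CPM in DMSO (-0.01 ± 0.21). Its libraries at 12 h had 124 and 136 CPM in thapsigargin and 101 and 99.6 CPM in DMSO (0.38 ± 0.26, adjusted p = 0.436). Gabarapl1 had 81.0 and 85.0 CPM in thapsigargin at 12 h against 53.9 and 50.03 CPM in DMSO at 12 h, above both vehicle libraries (0.68 ± 0.24, adjusted p = 0.0787). At 6 h its 62.7, 89.2 and 90.4 CPM in thapsigargin overlapped the 69.0, 64.2 and 69.1 CPM in DMSO, and at 2 h its 34.4, 34.6 and 33.7 CPM overlapped the 33.4, 39.8 and 23.5 CPM in DMSO. Gabarap took 53.2% to 64.2% of the family's summed level per kb in the group means, with 58.6% ± 2.9 in thapsigargin and 62.7% ± 3.0 in DMSO at 6 h (SD, n = 3 each).

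The 3 listed genes of the TFEB family moved in both directions at 6 h: Mitf and Tfe3 rose and Tfeb fell. Tfeb (chr17:47737030-47792419, plus strand) had 6.91, 12.1 and 10.7 CPM in thapsigargin at 6 h and 19.7, 14.4 and 22.5 CPM in DMSO at 6 h. At 12 h it had 2.80 and 3.33 CPM in thapsigargin and 10.98 and 10.4 CPM in DMSO. The groups did not overlap at either time. Tfeb was 1.91-fold lower at 6 h (log2 difference -0.93 ± 0.31, adjusted p = 0.0384) and 3.48-fold lower at 12 h (-1.80 ± 0.39, adjusted p = 0.00526). The call at 6 h was lost in 4 of the 6 fits without 1 library, those without DMSO 6 h replicate 1 or 3 (adjusted p = 0.0983 and 0.131) and without thapsigargin 6 h replicate 1 or 3 (0.148 and 0.077). The call at 12 h was lost without thapsigargin 12 h replicate 1 (adjusted p = 0.0694). At 2 h the 10.6, 8.63 and 10.8 CPM in thapsigargin overlapped the 10.4, 8.89 and 8.71 CPM in DMSO (0.10 ± 0.30).

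Tfe3 had 114, 100.4 and 104 CPM in thapsigargin at 6 h against 63.6, 67.9 and 57.9 CPM in DMSO at 6 h (log2 difference 0.75 ± 0.18, adjusted p = 0.00708). Mitf had 10.9, 9.13 and 9.97 CPM in thapsigargin at 6 h against 4.21, 4.67 and 4.15 CPM in DMSO at 6 h (1.203 ± 0.253, adjusted p = 0.00262). Both were above every vehicle library, and both calls held without each library of the 6 h groups in turn. At 12 h Tfe3 had 114 and 117 CPM in thapsigargin against 82.4 and 84.3 CPM in DMSO, and Mitf had 14.4 and 14.4 CPM against 8.96 and 9.08 CPM. Neither was called at 12 h (0.47 ± 0.22, adjusted p = 0.208, and 0.67 ± 0.31, adjusted p = 0.184). At 2 h the drug libraries lay at 95.6 to 105 CPM for Tfe3 and 13.2 to 13.4 CPM for Mitf, within the DMSO ranges of 82.7 to 109 CPM and 8.69 to 14.8 CPM.

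Within a library, Tfeb's share of the summed level per kb of the 3 factors was 8.0% to 14.7% in thapsigargin at 6 h against 23.9% to 36.4% in DMSO at 6 h. At 12 h the share was 3.27% and 3.79% in thapsigargin and 15.8% and 14.8% in DMSO. At 2 h it was 10.1% to 13.3% in thapsigargin and 9.81% to 15.1% in DMSO. The groups were separate at 6 and 12 h and overlapped at 2 h. The longest annotated transcript has 2342 bases for Tfeb and 4881 bases for Mitf, and libraries differed in their coverage of long transcripts, as given at the end. With offsets for transcript length and GC content in the fit, Tfeb was called lower and Mitf and Tfe3 higher at 6 h. That fit called 27.2% of all genes at 6 h. The Tfeb call at 6 h was lost with the replicate block (-0.90, adjusted p = 0.0641) and in a fit of the 6 h groups alone (-0.91, adjusted p = 0.0662). The Tfe3 call was lost with total-count scaling (0.87, adjusted p = 0.0876) and with no filter on low counts (0.73, adjusted p = 0.0742), and the Mitf call was kept in these 4 fits.

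**Figure D3:**
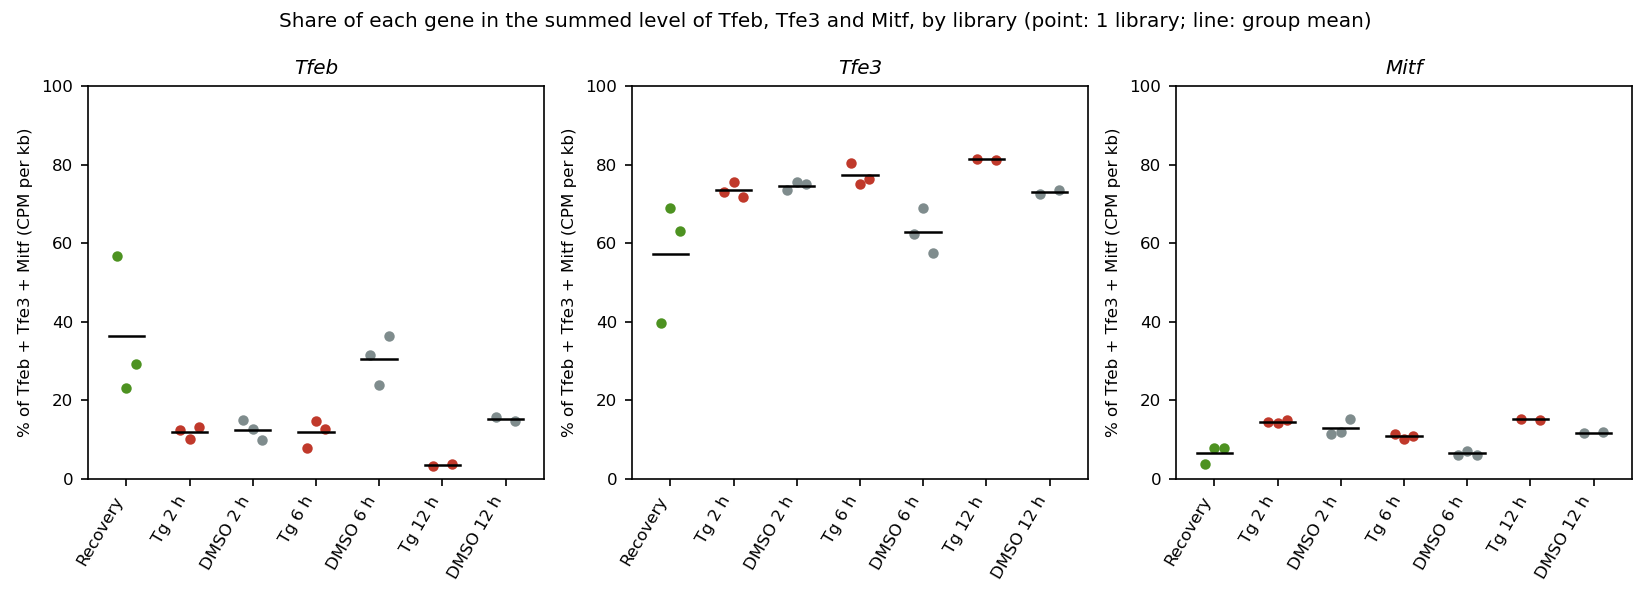
Share of Tfeb, Tfe3 and Mitf in the summed level (CPM per kb of exon) of the 3 genes, 1 point per library and a line at the group mean, for recovery (green), thapsigargin (Tg, red) and DMSO (grey). Tfeb lies at 3.27% and 3.79% in the 2 thapsigargin libraries of 12 h, below all other libraries, and at 23.1% to 56.7% in recovery.

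Neither lysosomal membrane gene was called. Lamp1, which encodes a main glycoprotein of the lysosomal membrane, had 303, 188 and 246 CPM in thapsigargin at 6 h against 416, 438 and 197 CPM in DMSO at 6 h, which overlapped (-0.51 ± 0.49, adjusted p = 0.531). Its libraries at 12 h had 419 and 434 CPM in thapsigargin against 626 and 649 CPM in DMSO (-0.58 ± 0.61, adjusted p = 0.672), and at 2 h 389, 388 and 406 CPM against 514, 526 and 904 CPM (-0.72 ± 0.50, adjusted p = 0.534). Drug libraries lay below all vehicle libraries at 2 and 12 h, and overlapped them at 6 h. Lamp2, its relative, had log2 differences of -0.81 ± 0.35, -0.14 ± 0.34 and 0.10 ± 0.42 at 2, 6 and 12 h.

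Of the ER-phagy receptors, Rtn3 fell at 6 h, Retreg1 and Tex264 were not called, and Ccpg1 was near 0. Rtn3, a reticulon whose long isoform acts as a receptor for ER tubules, had 167, 138 and 141 CPM in thapsigargin at 6 h and 231.5, 244 and 200.1 CPM in DMSO at 6 h. The log2 difference was -0.60 ± 0.18 (adjusted p = 0.0262), with separate groups, and the call was lost in 4 of the 6 fits without 1 library, those without DMSO 6 h replicate 1 or 2 or thapsigargin 6 h replicate 2 or 3 (adjusted p = 0.0723 to 0.0922). It had 182, 186 and 190.0 CPM in thapsigargin at 2 h against 268, 291 and 317 CPM in DMSO at 2 h (-0.65 ± 0.18, adjusted p = 0.0536), and 196 and 181 CPM at 12 h against 261 and 266 CPM (-0.48 ± 0.22, adjusted p = 0.189). Counts per gene do not separate the long isoform from the short ones. Retreg1, the receptor FAM134B of ER sheets, had 69.5, 32.3 and 36.0 CPM in thapsigargin at 6 h, which overlapped the 45.1, 60.1 and 29.1 CPM in DMSO (0.04 ± 0.34). It had 111, 107 and 119 CPM in thapsigargin at 2 h and 138, 143 and 126 CPM in DMSO (-0.27 ± 0.34), and at 12 h 110.1 and 104 CPM in thapsigargin and 113 and 111 CPM in DMSO (-0.07 ± 0.42). Tex264 had log2 differences of -0.33, 0.50 and 1.01 at 2, 6 and 12 h, none called.

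Ccpg1, an ER-phagy receptor known in mouse and human cells as a target of the unfolded protein response, had 49 reads over the 19 libraries, between 0 and 8 per library. The 3 thapsigargin libraries of 6 h were at 0, where a count of 0 allows up to 0.0756 to 0.104 CPM (3 counts per library, counting error only). It could not be tested. Exons of other genes cover 55.8% of the bases of its exons on either strand, and the gene Gm44503 alone shares 3213 of 7497 bases on the same strand and had 0 counts in all 19 libraries. How reads in shared exons were assigned is not given in the sources used here, so the level of Ccpg1 is uncertain. No other member had more than 50% of its exon bases in other genes, and 28 of the 43 had none.

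Other genes of the same pathways were counted in lists that do not contain the 43. Of 37 lysosomal hydrolases and their activators, 9 fell at 6 h and 0 rose, against 8.8% of all genes called lower. Those with the largest called differences at 6 h were Gusb (-1.07 ± 0.22, adjusted p = 0.00231), which encodes beta-glucuronidase and Naglu (-0.96 ± 0.24, adjusted p = 0.00892), which encodes an enzyme of heparan sulfate breakdown. Of the 37, 32 had a log2 difference below 0, with a median of -0.56 against 0.01 over all genes. At 2 h 3 fell, 8.11% against 1.51% of all genes, with a median of -0.29 against -0.04. At 12 h 3 fell, 8.11% against 6.77% of all genes and so near the background, with a median of -0.28 against 0.01. The lowest at 12 h was Arsb, which encodes arylsulfatase B, with 18.1 ± 0.8 CPM in thapsigargin and 67.4 ± 0.4 CPM in DMSO (SD, n = 2 each; -1.90 ± 0.57, adjusted p = 0.036). With the 7 alternatives that kept both 6 h groups whole, the median at 6 h lay between -0.58 and -0.41, with 3 to 19 of the 37 lower and 0 higher.

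**Figure D4:**
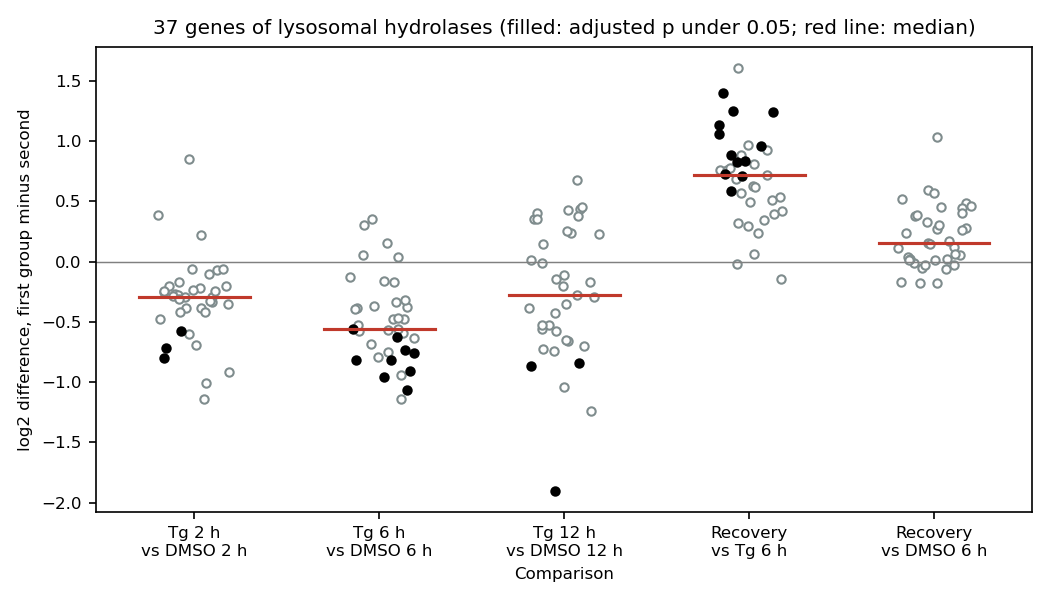
Log2 differences of 37 genes of lysosomal hydrolases and their activators in 5 comparisons, filled where the adjusted p was under 0.05, with a red line at the median. The medians were -0.29, -0.56 and -0.28 for thapsigargin (Tg) against DMSO at 2, 6 and 12 h, 0.72 for recovery against thapsigargin at 6 h and 0.15 for recovery against DMSO at 6 h.

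Among 28 further autophagy genes, Epg5, which acts in the fusion of autophagosomes with lysosomes, rose at all 3 times. It averaged 87.7 ± 7.8 CPM in thapsigargin and 35.9 ± 7.4 CPM in DMSO at 2 h (1.29 ± 0.28, adjusted p = 0.0137), 69.2 ± 24.5 and 18.8 ± 2.9 CPM at 6 h (1.88 ± 0.28, adjusted p = 0.000186) (SD, n = 3 each), and 203.7 ± 2.2 and 47.6 ± 0.2 CPM at 12 h (2.10 ± 0.35, adjusted p = 0.000653; SD, n = 2 each). At 6 h 5 of the 28 rose, among them Trp53inp1 (1.61 ± 0.47, adjusted p = 0.0216), and 1 fell, in all 21.4% against 21.8% of all genes. At 12 h Tmem41b, an ER scramblase needed for autophagosome formation, was 0.90 ± 0.22 higher (adjusted p = 0.0131). The calls among the 28 were 3.57% at 2 h and 7.14% at 12 h, against 4.52% and 13.1% of all genes. Of 8 further ER-phagy genes, Retreg3, a relative of Retreg1, fell at 2 h (-1.05 ± 0.23, adjusted p = 0.0135), 6 h (-1.44 ± 0.23, adjusted p = 0.000288) and 12 h (-1.37 ± 0.28, adjusted p = 0.00326), while Ufl1 (1.37 ± 0.40, adjusted p = 0.02) and Ufm1 (0.51 ± 0.17, adjusted p = 0.0382), of the UFMylation system, rose at 6 h. The calls among these 8 ER-phagy genes were 12.5%, 37.5% and 12.5% at 2, 6 and 12 h, against 4.52%, 21.8% and 13.1% of all genes. Of 8 mitophagy genes, 7 were tested, and Bnip3l fell at 6 h (-0.51 ± 0.16, adjusted p = 0.0342). That is 14.3% of the 7, against 21.8% of all genes.

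Of 17 subunits of the lysosomal proton pump V-ATPase, Atp6v1e1 fell at 2 h (-0.82 ± 0.20, adjusted p = 0.0287), Atp6v0d1 rose at 6 h (0.73 ± 0.22, adjusted p = 0.0264) and Atp6v1h rose at 12 h (0.97 ± 0.28, adjusted p = 0.0304). At each time that is 5.88% of the 17, against 4.52%, 21.8% and 13.1% of all genes at 2, 6 and 12 h. Of 20 genes of mTORC1 signalling at the lysosome, 19 were tested: Fnip1 (1.42 ± 0.28, adjusted p = 0.00182) and Rragd (0.88 ± 0.24, adjusted p = 0.0131) rose at 6 h, and Deptor, an inhibitor of mTOR, fell at 12 h (-1.53 ± 0.31, adjusted p = 0.00301). These are 10.5% of the 19 at 6 h and 5.26% at 12 h, below the 21.8% and 13.1% of all genes. Of 13 further lysosomal membrane genes, Slc38a9, the arginine sensor of the lysosome, rose at 12 h (1.17 ± 0.25, adjusted p = 0.00397). It was the only call of the list at 12 h, 7.69% against 13.1% of all genes, and 0 were called at 2 h or 6 h.

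The response at 6 h differed from that at 2 h for 3 of 42 genes, 7.14% against 3.99% of all genes. These were Optn, whose log2 difference was larger by 1.76 ± 0.24 (adjusted p = 0.000529), Sqstm1, larger by 1.64 ± 0.32 (adjusted p = 0.00715), and Atg13, larger by 1.21 ± 0.2 (adjusted p = 0.00248). The response at 12 h differed from that at 6 h for Optn alone, 2.38% of the members against 0.571% of all genes, with a log2 difference smaller by 1.70 (-1.70 ± 0.27, adjusted p = 0.00572). That call was lost without DMSO 12 h replicate 2 (adjusted p = 0.0526), thapsigargin 12 h replicate 1 (0.0861) or thapsigargin 12 h replicate 2 (0.0726). With total-count scaling, none of these 4 differences was called.

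In recovery, after 48 h without the drug, 10 of the 42 genes differed from thapsigargin at 6 h, 23.8% against 25.5% of all genes called, 11.6% higher and 13.9% lower. Sqstm1, Optn, Atg13, Atg3, Uvrag, Mitf, Wipi2 and Tfe3 were lower in recovery, and Tfeb and Atg2a were higher. Sqstm1 had 465, 689 and 776 CPM in recovery against the 2411 to 2597 CPM in thapsigargin at 6 h given above, 3.91-fold lower (log2 difference -1.97 ± 0.23, adjusted p = 1.53e-05). Optn had 19.9, 24.7 and 22.3 CPM in recovery, 3.24-fold below the drug group (-1.70 ± 0.17, adjusted p = 4.02e-06), and Atg13 had 31.2, 38.3 and 39.2 CPM, 2.23-fold below it (-1.16 ± 0.14, adjusted p = 2.45e-05). In each of these 3 the recovery and drug libraries were separate.

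Tfeb had 42.5, 16.4 and 21.2 CPM in recovery, above the drug group (log2 difference 1.43 ± 0.31, adjusted p = 0.00287). Its highest library, recovery replicate 1, is 1 of the 2 of high mitochondrial share and has the lowest coverage of long transcripts. Uvrag had 7.09, 26.0 and 21.4 CPM in recovery (-1.05 ± 0.35, adjusted p = 0.0352), and this call was lost without thapsigargin 6 h replicate 1 (-0.76, adjusted p = 0.147) or replicate 3 (adjusted p = 0.0543). Atg2a was 0.90 ± 0.21 higher (adjusted p = 0.00404), Atg3 was 1.07 lower (-1.07 ± 0.27, adjusted p = 0.00802), and Mitf (-0.95 ± 0.25, adjusted p = 0.011), Wipi2 (-0.67 ± 0.18, adjusted p = 0.00988) and Tfe3 (-0.65 ± 0.18, adjusted p = 0.015) were lower in recovery. Without recovery replicate 1, 15 of the 42 and 29.9% of all genes were called. Without both libraries of high mitochondrial share, 19 and 35.1% of all genes were called. A fit of the 2 groups alone called Sqstm1, Optn and Atg13, and 9.19% of all genes. This comparison and that of thapsigargin with DMSO at 6 h share the drug libraries.

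Against DMSO at 6 h, edgeR called 0 of the 42 genes in recovery, against 0.327% of all genes. The log2 differences ran from -0.37 for Atg3 to 0.80 for Wdr45. At an unadjusted p under 0.05, where the share of all genes was not counted, there was 1 gene, Optn. Optn had 19.9 to 24.7 CPM in recovery and 14.3 to 18.6 CPM in DMSO at 6 h, which did not overlap (0.49 ± 0.17, adjusted p = 0.325). It was the 1 gene that DESeq2 called and the 1 gene that edgeR called without the libraries of high mitochondrial share. The recovery interval leaves room for moderate differences: that of Sqstm1 ran from -0.25 to 0.62 and that of Tfeb from -0.10 to 1.09 on the log2 scale (95% interval). Against the other vehicle groups in place of DMSO at 6 h, 20 of the 42 differed from DMSO at 2 h, where 48.1% of all genes did, and 12 from DMSO at 12 h, where 32.1% of all genes did. The labels name no vehicle group kept for the further 48 h of recovery, and give no total culture times. Effects of recovery and of culture time therefore cannot be told apart. Genes of the stress response were higher in DMSO at 6 h than in DMSO at 2 h, as given above. Of the 37 lysosomal hydrolases, 12 were higher in recovery than in thapsigargin at 6 h and 0 lower, 32.4% against 11.6% of all genes called higher, with a median of 0.72 against 0.04 over all genes. Against DMSO at 6 h their median was 0.15. In a fit of the 2 groups alone, 0 of the 37 were called against thapsigargin at 6 h, with a median of 0.74.

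The vehicle groups themselves differed in these genes, so levels are not comparable across times. DMSO at 6 h differed from DMSO at 2 h in 21 of the 42 genes, 7 higher and 14 lower, against 49.6% of all genes called, 24.6% higher and 25.0% lower. DMSO at 12 h differed from DMSO at 6 h in 13, 9 higher and 4 lower, 31.0% against 35.4% of all genes, of which 18.7% were higher and 16.7% lower. Between DMSO at 6 h and at 2 h, the short Atg101 (1.79 ± 0.35, adjusted p = 0.00101) and Tex264 (1.47 ± 0.41, adjusted p = 0.00858) rose, and Lamp2 (-2.08 ± 0.36, adjusted p = 0.000518) and Rb1cc1 (-1.94 ± 0.40, adjusted p = 0.00153) fell. With length and GC offsets, Atg101 (0.17, adjusted p = 0.512), Tex264 (0.25, adjusted p = 0.266) and Rb1cc1 (-0.36, adjusted p = 0.107) were not called, and Lamp2 was (-1.34, adjusted p = 7.73e-05). Across the 42 genes, the log2 difference of DMSO at 6 h minus 2 h had a Spearman correlation of -0.48 with the length of the longest transcript, and that of DMSO at 12 h minus 6 h one of 0.53. Genes are not independent replicates, and all points share the same libraries.

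The same trend ran through all protein-coding genes. The median log2 level of the longest tertile of transcripts (4250 bases or more) minus that of the shortest tertile (2583 bases or fewer), relative to the mean of all libraries, was 0.65 to 1.09 in the 6 libraries of 2 h and 0.39 to 0.59 in the 4 of 12 h. It was -1.15 to -0.03 in thapsigargin and -1.24 to -0.60 in DMSO at 6 h, and -1.42 to -0.13 in recovery. At each time the ranges of drug and vehicle lay on the same side of 0. In the drug comparisons the correlation of the members' log2 differences with length was 0.18 at 2 h, 0.03 at 6 h and -0.09 at 12 h. With offsets for transcript length and GC content, all 10 genes called at 6 h and all 5 called at 12 h were called again. The fit with offsets called more of all genes, 27.2% against 21.8% at 6 h and 17.5% against 13.1% at 12 h. The part of this trend in the differences between times was not tested further.

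**Figure D5:**
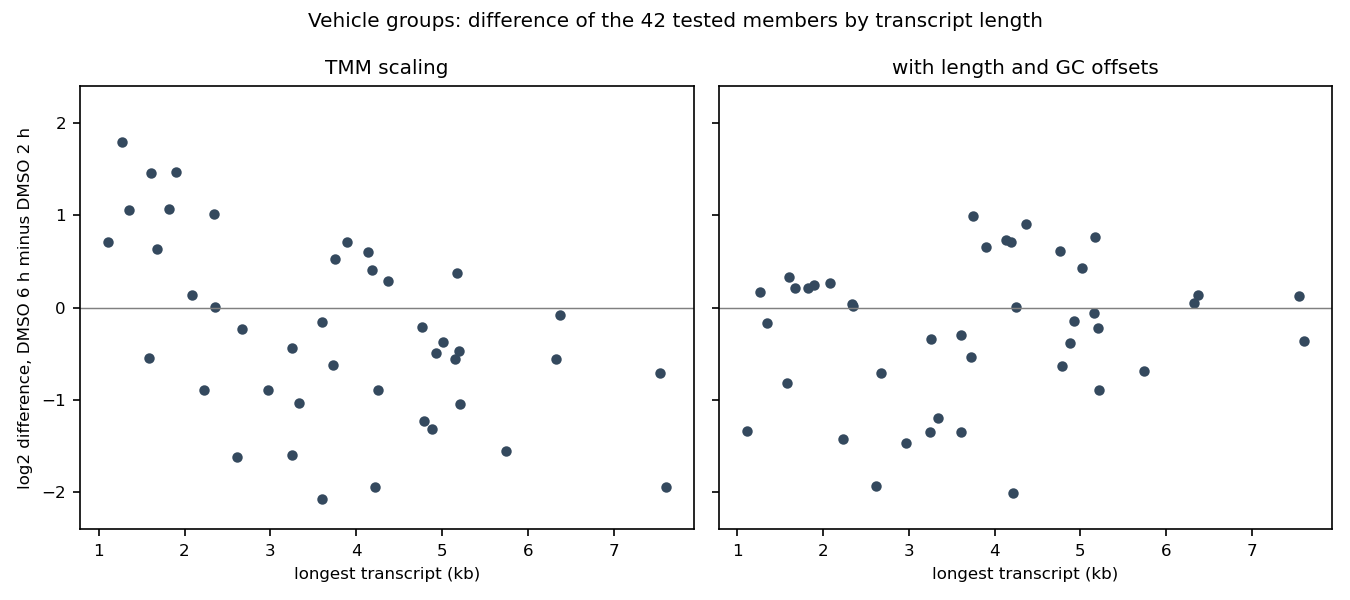
Log2 difference of DMSO at 6 h minus DMSO at 2 h for the 42 tested genes (vertical axis) against the length of their longest transcript in kb (horizontal axis), with TMM scaling (left) and with length and GC offsets (right), 1 point per gene. The Spearman correlation was -0.48 with TMM scaling and 0.11 with the offsets.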

How the data were processed

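The data are 19 RNA-seq libraries of C2C12 cells, for which the authors deposited raw read counts per gene for each library. Reads were handled with Trim Galore, STAR 2.5.3a and bedtools 2.31.0 on mm10, per the submitters' processing notes. The counting program, its strand setting and the annotation stand as not given in the sources used here. The 5 lines of unassigned reads, 13.7% to 28.7% of reads, were left out. Of 55401 gene identifiers, 55141 matched GENCODE M21, which gave names, exons and lengths.

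Counts were tested with edgeR 4.0.16 in R 4.3.3 (glmQLFit and glmQLFTest, 1 mean per group over all 19 libraries, TMM scaling, filterByExpr, no replicate block), with Benjamini-Hochberg adjustment over the 18039 genes kept. Standard errors are the log2 difference divided by the square root of F. CPM values use TMM-scaled library sizes, and levels per kb use the union of exons. The fit was tested on simulated data. Alternatives were DESeq2 1.42.0, total-count scaling, no filter, only the groups compared, a replicate block, length and GC offsets, other vehicle groups, and libraries left out. Group levels were also computed as CPM on total gene counts. Libraries held 17305962 to 40964140 gene reads, and intervals and floors cover counting error only where they come from counts. The genes and lists were chosen with earlier results of these data known. Values by library are given for members called in a drug against vehicle comparison and for Sqstm1, Map1lc3b, Gabarapl1, Tfeb, Lamp1, Retreg1 and Ccpg1, and up to 3 called genes are named per further list.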

Additional observations from a re-analysis of the deposited data

Results flagged for a closer look

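The response to thapsigargin differed between times for 3 genes by the test of the difference itself, edgeR's interaction contrast with adjustment over all genes. From 2 h to 6 h the log2 difference against DMSO was larger by 1.76 for Optn, by 1.64 for Sqstm1 and by 1.21 for Atg13. From 6 h to 12 h it changed by -1.70 for Optn. In Optn the DMSO level itself differed between times, with 14.3 to 18.6 CPM at 6 h, 43.5 to 59.3 CPM at 2 h and 27.2 and 29.3 CPM at 12 h. The part of this in the difference between responses was not tested.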

How the results depend on the processing

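Counts of called genes among the 42 depended on the fit, most of all at 12 h, and so did the calls over all genes. The share of all genes called in the same fit is given in brackets. For thapsigargin against DMSO at 2 h, 9 were called with only these groups (16.2%) and 5 with length and GC offsets (8.18%). With DESeq2 9 were called (9.39%), and 9 without the 2 libraries of high mitochondrial share (10.4%), against 0 (4.52%). At 6 h 6 were called with total-count scaling (16.1%), 6 with no filter (9.98%) and 19 without the 2 libraries (37.0%), against 10 (21.8%). At 12 h 3 were called with total-count scaling (8.56%), 3 with no filter (5.45%) and 31 with only these groups (62.2%). Without the 2 libraries 14 were called (25.5%), 11 with offsets (17.5%) and 10 with DESeq2 (16.9%), against 5 (13.1%). For recovery against thapsigargin at 6 h the counts were 6 with total-count scaling (18.5%), 3 with only these groups (9.19%) and 19 without the 2 libraries (35.1%), against 10 (25.5%). For recovery against DMSO at 6 h they were 20 with DMSO at 2 h (48.1%) and 12 with DMSO at 12 h (32.1%) as the vehicle. Without the 2 libraries 1 was called (2.12%) and with DESeq2 1 (2.35%), against 0 (0.327%). For the response at 6 h minus that at 2 h the counts were 0 with total-count scaling (1.78%) and 5 without the 2 libraries (11.1%). With offsets 6 were called (7.13%) and with DESeq2 6 (8.63%), against 3 (3.99%). For the response at 12 h minus that at 6 h the counts were 0 with total-count scaling (0.166%) and 0 with no filter (0.234%). Without the 2 libraries 2 were called (4.11%) and with DESeq2 2 (2.42%), against 1 (0.571%). For DMSO at 12 h against 6 h the counts were 8 with total-count scaling (25.3%) and 7 with the replicate block (24.4%). Without the 2 libraries 27 were called (56.6%) and with offsets 7 (21.2%), against 13 (35.4%). The causes were not tested.

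Leaving out 1 library at a time gave 0 calls throughout at 2 h (1.78% to 3.72% of all genes) and 7 to 8 at 6 h (16.1% to 18.5%). It gave 9 to 15 for recovery against thapsigargin at 6 h (19.6% to 29.9%) and 0 throughout for recovery against DMSO at 6 h (0.122% to 0.699%). There were 3 throughout for 6 h minus 2 h (2.35% to 4.42%) and 10 to 21 for DMSO at 6 h against 2 h (34.4% to 48.9%). Leaving out a 12 h library leaves 1 in its group, so no counts are given for comparisons with 12 h. Of 818 single-gene values, 646 kept direction and call, 167 lost the call and 5 changed sign, all with length and GC offsets in comparisons of vehicle groups: Gabarap -0.165, Tax1bp1 0.005 and Tfe3 0.05 for DMSO at 6 h against 2 h, and Map1lc3a 0.382 and Rb1cc1 -0.12 for DMSO at 12 h against 6 h. Total-count scaling moved the median of all genes at 6 h to 0.144, against 0.013, and the calls over all genes to 2067 higher and 832 lower, against 2344 and 1587.

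Of 52 same-numbered pairs of libraries, 5 had deviations from their group means correlated above 0.1 (r from -0.689 to 0.686). Pairs of different numbers were not compared, so whether replicate numbers pair the libraries is not decided. With the replicate block, 0, 8 and 5 of the 42 were called at 2, 6 and 12 h. That fit called 3.34%, 19.2% and 11% of all genes at these times. Recovery gave 9 of the 42 against thapsigargin at 6 h (21.9% of all genes) and 0 against DMSO at 6 h (0.233%). The differences in response gave 3 for 6 h minus 2 h (2.79%) and 1 for 12 h minus 6 h (0.394%). The vehicle comparisons gave 20 for 6 h against 2 h (45.9%) and 7 for 12 h against 6 h (24.4%). With 2 libraries per group, 12 h is the least precise time.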
